A study of Arabidopsis thaliana with 6 samples.

Results

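The camalexin and tryptophan synthesis genes of Arabidopsis thaliana were followed here through 5 probe sets, out of 22746 Arabidopsis probe sets on the array. They were chosen by name: PAD3 (258277_at), CYP71A13 (267567_at), ASA1 (250738_at), TSA1 (251847_at) and the probe set annotated to AT2G04400, called IGPS (263807_at). An identifier was to be left out if its annotation named another locus, and none did. The annotation table used here gives a gene for 1 of the 5, IGPS, and lists no gene for the other 4, whose names (PAD3 for AT3G26830, CYP71A13 for AT2G30770, ASA1 for AT5G05730 and TSA1 for AT3G54640) come from the selection rule alone. The genes were chosen with values of the comparison of saliva with control in view, so their differences are given as a description and without a test.

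Camalexin is the main indole phytoalexin of Arabidopsis, an antimicrobial compound made after attack by pathogens and some insects, aphids among them. Its carbon skeleton comes from tryptophan, which is built in the plastid from chorismate. Anthranilate synthase, whose alpha subunit ASA1 encodes, takes the first committed step, indole-3-glycerol phosphate synthase (IGPS) closes the indole ring, and the alpha subunit of tryptophan synthase (TSA1) releases indole. Tryptophan is then turned into indole-3-acetaldoxime, an intermediate that camalexin shares with the indole glucosinolates. The cytochrome P450 CYP71A13 converts the oxime to indole-3-acetonitrile on the camalexin branch, and PAD3 (CYP71B15), another cytochrome P450, forms camalexin in the last step.

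The study compared 3 control arrays with 3 arrays of plants that received Myzus persicae saliva. This species, the green peach aphid, feeds on phloem sap. All plants were wild type of the Col-0 accession (stock CS60000), 3 weeks old, kept in a long-day growth chamber and used before flowering, and no transgene or mutation is given for either group. The tissue, the way saliva was given, the time after it and the treatment of the controls are not stated in the labels, and neither is whether replicates came from separate plants or experiments, so the spread may be technical. RNA was hybridised to Affymetrix ATH1 arrays, which give a probe set signal on a linear scale.

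The median signal was between 32.4 and 33.4 on each array, and the mean after trimming 2% of probe sets at either end was 100.01 on all 6. RNA quality was described by the log2 ratio of signals from the end and the start of control transcripts. For actin it ran from 3.23 to 3.93 over the 6 arrays. For ubiquitin it was 1.36 ± 0.047 in the controls and 1.23 ± 0.37 with saliva (SD, n = 3), and for GAPDH 0.51 ± 0.091 and 0.48 ± 0.15. Saliva replicate 3 stood apart from the rest, with a mean correlation of 0.980 to the other arrays of its group, and saliva replicate 1 was correlated to the control arrays (0.984) as closely as to its own group (0.983). Of 6 markers of leaf mesophyll, 3 were named here (PRK, SBPASE and LHCB4.1), of which LHCB4.1 was the brightest. Their summed signal ran from 12865 to 13613 in the controls and from 10693 to 11984 with saliva, so the groups did not overlap. Of all single probe sets tested, 15.5% had groups that did not overlap. The guard cell gene FMA, 1 of 3 markers, ran from 42.8 to 51.0 and from 41.6 to 50.4. The 3 root markers were all among the probe sets left out as dim, with summed signals from 8.10 to 17.3 in the controls and 9.38 to 18.7 with saliva, and 0 of 3 phloem and 0 of 3 flower markers were named. The part of these shifts in the values below was not tested. In RNA of a whole tissue, fewer cells of a type and less RNA per cell cannot be told apart.

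The first question was how the genes of the camalexin branch differed between the groups. PAD3 had signals of 34.2, 31.1 and 47.3 on control replicates 1, 2 and 3, and of 68.7, 90.9 and 110 on saliva replicates 1, 2 and 3. Every saliva array lay above every control array, and the lowest saliva value belonged to replicate 1. The mean signal was 37.5 ± 8.58 (SD, n = 3) in the controls and 89.7 ± 20.5 (SD, n = 3) with saliva, a ratio of 2.39. The control signals lay close to the array medians (32.4 to 33.4) or above them, and whether they exceeded background was not tested. On the log2(signal + 16) scale used for all differences below, which understates the change of dim probe sets, the difference was 0.98 ± 0.16 (SE of the limma fit over all 13647 probe sets tested). Of the probe sets tested, 19 (0.139%) had a larger positive difference. PAD3 was chosen with this comparison in view, as were the other genes. This rank and those given below therefore describe the values and support nothing.

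CYP71A13 had signals of 23.5, 17.2 and 38.6 on control replicates 1, 2 and 3. The saliva arrays gave 37.0, 40.2 and 40.3. The 3 saliva values were close together, while the controls were spread, and control replicate 3 lay above saliva replicate 1, so the groups overlapped. The mean was 26.5 ± 11.0 (SD, n = 3) in the controls and 39.2 ± 1.87 (SD, n = 3) with saliva, a ratio of 1.48, and the log2 difference was 0.41 ± 0.17 (SE). A larger positive difference was found in 324 probe sets, 2.37% of those tested. The control SD of CYP71A13 on the log2 scale, 0.36, exceeded that of 97.3% of the probe sets tested, and its saliva SD of 0.049 exceeded that of 8.70%. CYP71A12 is a close paralog of CYP71A13, and whether its transcript binds to this probe set was not tested.

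**Figure D1:**
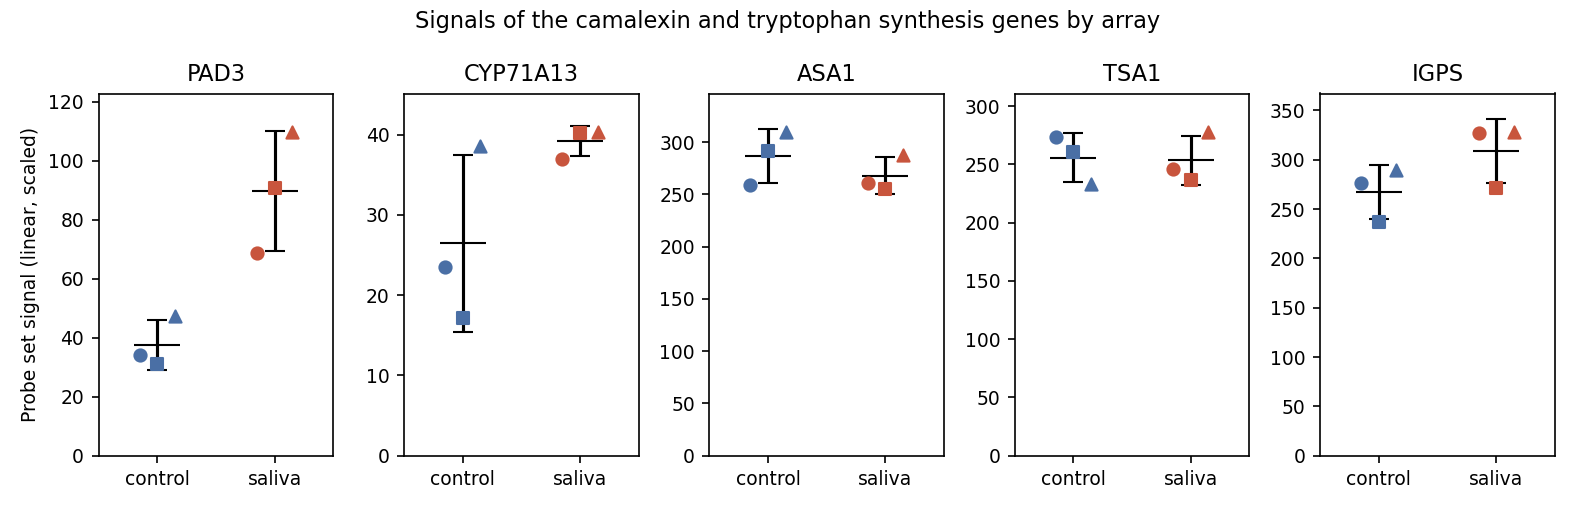
Probe set signal (vertical axis, linear scale starting at 0 and set separately for each gene) on each of the 6 arrays, with control in blue and saliva in red and circles, squares and triangles for replicates 1, 2 and 3. Black lines are the group mean ± SD (n = 3); the saliva points of PAD3 (68.7 to 110) all lie above its control points (31.1 to 47.3), and the groups of the other 4 genes overlap.

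The second question was whether the genes that supply tryptophan differed as well. ASA1 had signals of 259, 292 and 309 on control replicates 1, 2 and 3 and of 261, 255 and 288 on saliva replicates 1, 2 and 3. The ranges overlapped over most of their width. The mean was 287 ± 25.8 (SD, n = 3) in the controls and 268 ± 17.6 (SD, n = 3) with saliva, with a log2 difference of -0.091 ± 0.11 (SE).

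TSA1 had signals of 274, 261 and 233 on control replicates 1, 2 and 3 and of 246, 237 and 278 on saliva replicates 1, 2 and 3. Its lowest value was on a control array and its highest on a saliva array, with the others interspersed. The means of 256 ± 20.7 and 253 ± 21.4 (SD, n = 3) gave a log2 difference of -0.013 ± 0.11 (SE), smaller than its error.

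IGPS (AT2G04400) had signals of 276, 236 and 289 on control replicates 1, 2 and 3 and of 327, 271 and 328 on saliva replicates 1, 2 and 3. Saliva replicates 1 and 3 lay above all controls, and saliva replicate 2 lay below control replicates 1 and 3. The mean was 267 ± 27.5 (SD, n = 3) in the controls and 309 ± 32.6 (SD, n = 3) with saliva, a ratio of 1.15, and the log2 difference was 0.20 ± 0.12 (SE). Of the probe sets tested, 12.6% had a larger positive difference. Among the 3 tryptophan genes the log2 differences thus ran from -0.091 to 0.20, and those of the camalexin P450 genes were 0.41 and 0.98.

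All 5 genes passed the filter on dim probe sets. Of the 5, 0 passed a limma adjusted p of 0.05 over all probe sets tested, where 0.0586% of all probe sets did, and 2 had an unadjusted p under that level, against 10.2% of all. The groups did not overlap for 1 of the 5, PAD3, where 15.5% of all probe sets tested had groups that did not overlap and 7.80% had all saliva arrays higher. The median difference was 0.20 for the 5 genes and 0.0057 for all probe sets tested. Since this is the comparison the genes were chosen from, nothing is read from these counts.

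Differences between 2 of the genes on the same array depend little on how the array was scaled. Only their shift between groups can be read, since the level of a difference depends on the probes. PAD3 minus ASA1, as log2 values, was higher with saliva by 1.07, from a control mean of -2.51 ± 0.18 to a saliva mean of -1.44 ± 0.23 (SD, n = 3). The shift was 0.99 for PAD3 minus TSA1, 0.78 for PAD3 minus IGPS and 0.57 for PAD3 minus CYP71A13. In each of these the 3 saliva arrays lay above the 3 control arrays. All PAD3 pairs contain the difference of PAD3 itself, so they are not separate results. For CYP71A13 minus ASA1 the shift was 0.50, with no overlap, and for CYP71A13 minus TSA1 and minus IGPS it was 0.42 and 0.21, with overlapping groups. The pairs of tryptophan genes shifted by -0.077 (ASA1 minus TSA1), -0.29 (ASA1 minus IGPS) and -0.21 (TSA1 minus IGPS), and overlapped in all 3 pairs. Such a shift does not show which gene of a pair changed, and it was not tested. How often pairs of other probe sets separate the groups was not counted, so nothing is read from the lack of overlap.

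Leaving out 1 array at a time showed what each difference rests on. PAD3 ran from 0.84 without saliva replicate 3 to 1.13 without saliva replicate 1. CYP71A13 ran from 0.25 without control replicate 2, its dimmest array, to 0.61 without control replicate 3, its brightest control. Both genes also changed with the offset added before log2. With an offset of 1 CYP71A13 was 0.62 and PAD3 1.23, and with 64 they were 0.20 and 0.59. These changes exceeded the pooled SD within groups for PAD3 and not for CYP71A13. IGPS ran from 0.12 without control replicate 2 to 0.28 without saliva replicate 2, and ASA1 from -0.16 without control replicate 1 to -0.036 without control replicate 3. TSA1 changed sign, from -0.077 without saliva replicate 3 to 0.034 without control replicate 1.

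**Figure D2:**
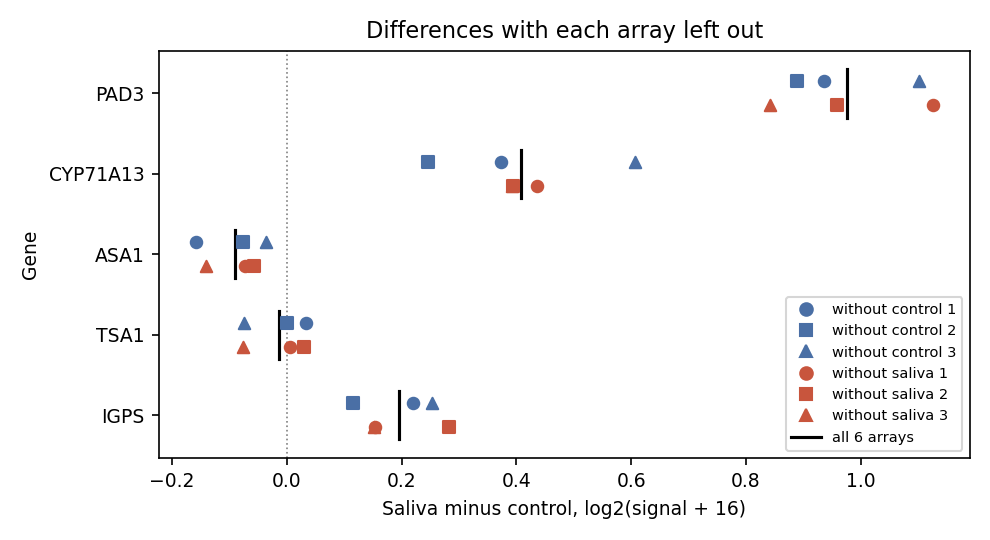
Difference between saliva and control on the log2(signal + 16) scale (horizontal axis) for each gene with 1 array left out, in blue for a control and red for a saliva array, with the marker giving the replicate. Black bars are the values with all 6 arrays; PAD3 stays between 0.84 and 1.13, CYP71A13 between 0.25 and 0.61, and TSA1 lies on both sides of 0.

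The genes were also set side by side across the 6 arrays, as a description with no test, since arrays of a group share their treatment. Pearson's r of the log2 values was 0.84 for PAD3 and CYP71A13, 0.76 for CYP71A13 and IGPS and 0.67 for PAD3 and IGPS. With so few arrays the r of 0.84 was not particular to this pair. Of the 13647 probe sets tested, 460 others were more like PAD3 than CYP71A13 was. From the other side, 284 others were more like CYP71A13 than PAD3 was. ASA1 and TSA1 had r of -0.20 and -0.070 with PAD3, and of -0.050 and -0.42 with CYP71A13. With the group means taken out, r was 0.70 for PAD3 and CYP71A13, 0.57 for CYP71A13 and IGPS, 0.62 for PAD3 and ASA1 and -0.0072 for PAD3 and TSA1. By that measure 1529 other probe sets were more like PAD3 than CYP71A13 was, and 2134 were more like PAD3 than ASA1 was. PAD3 and CYP71A13 were both brightest, among the controls, on control replicate 3 and dimmest on control replicate 2.

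The genes with the most similar pattern, by the highest r among probe sets with 1 annotated gene, were AT3G20430 (r = 0.998) and AT1G61150 (r = 0.992) for PAD3, with 55 probe sets above r = 0.95. For CYP71A13 they were AT2G36300 (r = 0.997) and AT5G35680 (r = 0.983), for ASA1 AT1G74780 (r = 0.993) and AT5G38830 (r = 0.986), for TSA1 GPT (r = 0.988) and AT3G08650 (r = 0.974), and for IGPS AT1G54850 (r = 0.988) and AT1G42470 (r = 0.985), each over 6 arrays. The closest to PAD3, AT3G20430, had signals of 36.2, 35.1 and 43.5 on the control and 50.9, 57.9 and 62.4 on the saliva arrays. The number of probe sets above r = 0.95 was 27 for CYP71A13, 41 for ASA1, 16 for TSA1 and 15 for IGPS. The named genes were picked as the highest of many r values over only 6 arrays, so a high r is built into the choice. Whether they are regulated together was not tested.

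The rest of the pathway was followed through 6 lists with 76 genes of the shikimate pathway, tryptophan synthesis, camalexin synthesis, its regulators, other uses of chorismate and other uses of tryptophan. Besides the 5 genes above, 8 have a probe set annotated to them alone, and 63 are unnamed here, among them the beta subunit of tryptophan synthase, CYP79B2, CYP79B3 and the regulator WRKY33. The named genes thus cover a small part of the pathway, and no other camalexin gene and no regulator was analysed. Of the 8, 7 were tested, and 0 passed a limma adjusted p of 0.05 in either direction, while 1 had an unadjusted p under it, against 0.0586% and 10.2% of all probe sets tested. The median difference of the 7 was -0.11, with 1 above 0 and 6 below 0, where 51.5% of all probe sets tested were above 0. These signs are not firm: AT5G66120, the positive one, was -0.0049 with quantile normalization, -0.0034 with median centring and -0.0074 with array weights. With single arrays left out, AT4G02610 ran from -0.11 to 0.073, AT5G34930 from -0.13 to 0.072, AT5G66120 from -0.032 to 0.043 and AT1G22410 from -0.20 to -0.041. The groups did not overlap for 1 of the 7, against 15.5% of all probe sets tested.

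In the shikimate pathway, which makes chorismate, AT1G22410, a 3-deoxy-D-arabino-heptulosonate 7-phosphate synthase gene of its first step, differed by -0.11 ± 0.11 (SE, limma adjusted p = 0.814). AT5G66120, a 3-dehydroquinate synthase gene, differed by 0.0092 ± 0.10 (SE, limma adjusted p = 0.987). Their signals ran from 398 to 517 and from 282 to 315 over the 6 arrays, and the groups overlapped for both.

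Both remaining tryptophan genes are paralogs of genes described above. AT5G48220, a second IGPS gene, had signals of 215, 216 and 259 on control replicates 1, 2 and 3 and of 216, 164 and 157 on saliva replicates 1, 2 and 3. Saliva replicate 1 lay among the controls and the other saliva arrays below them. Its difference was -0.34 ± 0.13 (SE), which did not pass (limma adjusted p = 0.383, unadjusted p = 0.0229), against 0.20 for IGPS. AT4G02610, the TSA1 paralog that encodes an indole synthase of the cytosol, differed by -0.025 ± 0.13 (SE, limma adjusted p = 0.972), close to the value of TSA1.

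Chorismate also feeds phenylalanine and tyrosine. AT5G34930 and AT1G15710, genes of arogenate dehydrogenases of tyrosine synthesis, differed by -0.034 ± 0.14 and -0.25 ± 0.12 (SE), with limma adjusted p of 0.967 and 0.503. AT1G15710 was the gene without overlap, with control signals of 91.0, 84.9 and 89.3 and saliva signals of 72.9, 62.2 and 81.2. UGT74B1 (AT1G24100), a glucosyltransferase of glucosinolate synthesis and so on the branch beside camalexin, gave 401, 424 and 351 on the control arrays and 382, 300 and 319 on the saliva arrays. Its groups overlapped, and it differed by -0.23 ± 0.12 (SE, limma adjusted p = 0.549).

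AT1G26380 (FOX1), an oxidase gene of another tryptophan-derived defence compound, the 4-hydroxyindole-3-carbonyl nitrile, was the named gene under the filter. Its signals were 5.56, 4.12 and 10.8 on control replicates 1, 2 and 3 and 16.1, 19.9 and 14.0 on saliva replicates 1, 2 and 3. The saliva arrays lay above the controls, and all 6 values were dim. In the fit without the filter it differed by 0.52 ± 0.15 (SE) and did not pass (limma adjusted p = 0.442). Whether its signal exceeded background was not tested.

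**Figure D3:**
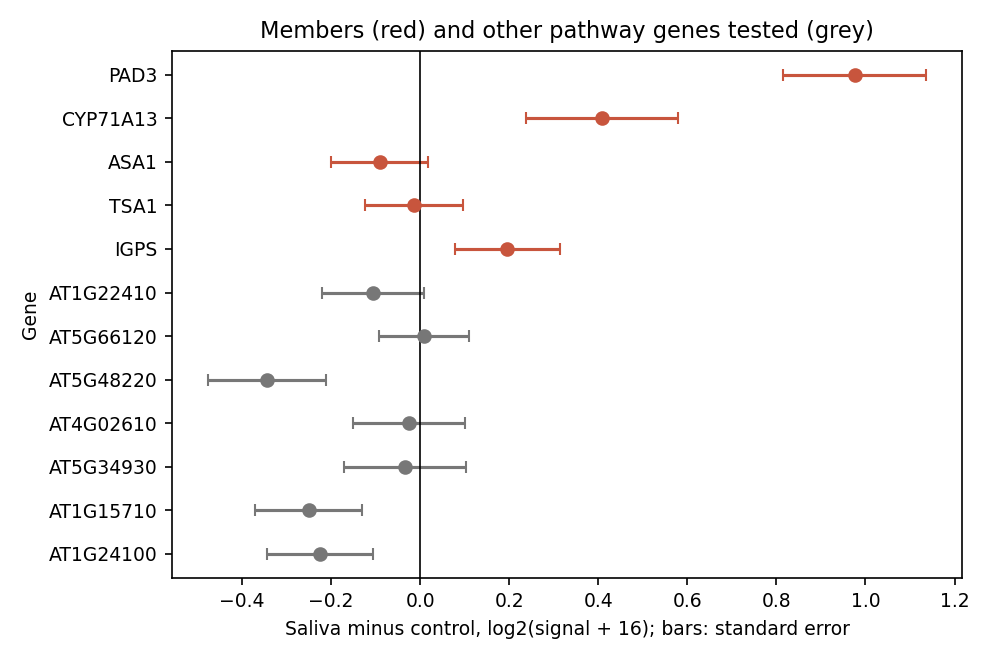
Difference between saliva and control on the log2(signal + 16) scale (horizontal axis) with its standard error from the limma fit, for the 5 genes the report is about (red) and the 7 other pathway genes tested (grey). PAD3 (0.98) and CYP71A13 (0.41) have the highest values, and the grey points lie between -0.34 and 0.0092.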

How the data were processed

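The deposited table holds a linear intensity for each probe set of each array. MAS5, GCOS and limma are listed, without roles or versions, in the submitters' processing notes, and the trimmed mean was the same on every array, so the authors' scaling was kept. Groups and replicate numbers come from the labels. Without the 64 Affymetrix control probe sets, 16 was added before log2, and the 40% with the lowest mean over the 6 arrays were left out, which left 13647. The groups were compared by limma 3.58.1 under R 4.3.3 (lmFit, eBayes with a trend, two-sided, Benjamini-Hochberg). A check on simulated data recovered 88% of log2 changes of 0.5 and 100% of changes of 1, with 4.14% of calls false. It set changes only in probe sets brighter than PAD3 and CYP71A13 are in the controls, so it does not cover these genes. Its noise was independent, with the same spread for all probe sets of equal brightness. Real probe sets of equal brightness differ in spread. The check therefore does not give the share of real changes that would be found, for ASA1, TSA1 and IGPS either. Gene names come from the platform's annotation, updated through RefSeq gene identifiers of TAIR10.1 (99.4% found). This gave 13513 probe sets with 1 gene, 503 with several and 8730 unnamed here. No promoter or protein sequences were used here. The members and lists were chosen with earlier results of these data known. The lists were written by locus from textbook knowledge. The named genes are the 5 members, all list genes annotated alone, and the 2 most similar annotated genes for each member. The alternatives were other offsets, filters, normalizations and variance models, array weights, a replicate block, and leaving out single arrays. The number of arrays limits the precision.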

Additional observations from a re-analysis of the deposited data

How the results depend on the processing

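The count of 8 probe sets past the adjusted threshold (6 higher, 2 lower) was 2 when the offset was 1, 2 when it was 64 and 2 with the lowest 60% left out (each 1 higher and 1 lower). It was 1 with no filter, with quantile normalization or without a mean-variance trend (each 1 higher and 0 lower), 53 with array weights and 29 with a replicate block. Without single arrays it ran from 1 to 14, with 1, 2 and 1 without control replicates 1, 2 and 3 and 14, 1 and 2 without saliva replicates 1, 2 and 3. The cause was not tested. With median centring it was 9. With these offsets PAD3 differed by 1.23 and 0.59 and CYP71A13 by 0.62 and 0.20, as an offset shrinks the change of dim probe sets by construction. With each offset, normalization and array weights (the last chosen for these genes after seeing the data), the differences of the 5 genes kept their signs, and TSA1 ran from -0.046 to -0.011. The count of other pathway genes past the threshold was 0 under every alternative. With the group means taken out, Pearson's r moved to 0.29 for ASA1 and IGPS and 0.42 for CYP71A13 and ASA1. It moved to 0.62 for PAD3 and ASA1, 0.70 for PAD3 and CYP71A13 and 0.30 for PAD3 and IGPS. For CYP71A13 and IGPS it was 0.57, within the range found with single arrays left out. The replicate numbers were not treated as pairs in the main fit, and whether they pair the arrays is not settled here. The deviations of same-numbered arrays correlated at -0.059, 0.12 and 0.15, and those of arrays with different numbers ran from -0.17 to 0.089. Deviations from a group mean sum to 0 within each group, so these correlations depend on each other and cannot decide it. With equal groups the block cannot move a difference of group means, so it says nothing about the stability of the 5 differences. No detection calls were used, so how far the signals of PAD3, CYP71A13 and AT1G26380 exceeded background was not tested.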
